A study of Mus musculus with 8 samples.

Results

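The activin system was read in mRNA of fibro/adipogenic progenitors (FAPs), the mesenchymal cells of skeletal muscle that can become fibroblasts or adipocytes. Its 10 genes were taken by name from the 31053 genes counted. They encode the activin beta subunits (*Inhba* and *Inhbb*), the type I receptors (*Acvr1*, *Acvr1b* and *Acvr1c*), the type II receptors (*Acvr2a* and *Acvr2b*) and follistatin with a pair of its relatives (*Fst*, *Fstl3* and *Fstl1*). All 10 had at least 1 count, and 8 of them had enough counts to enter the test across genes.

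Activins are secreted dimers of beta subunits that belong to the TGF-beta superfamily. They bind a type II receptor, which phosphorylates a type I receptor, and this in turn phosphorylates SMAD2 and SMAD3, which enter the nucleus with SMAD4 and act on target genes. Follistatins bind activins outside the cell and keep them from their receptors. In skeletal muscle, activins and the related ligand myostatin are known as brakes on muscle mass, and the pathway is also known in fibrosis and in fat.

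The cells came from hind limb muscles of 4 *mdx* mice (strain C57BL/10ScSn-Dmdmdx/J, which lacks dystrophin), 45 days old. FAPs were sorted by the surface protein SCA-1 into SCA1-High-FAPs and SCA1-Low-FAPs, and each cell state was represented by 4 replicates. Both states were kept for 5 days in growth medium with 20% fetal bovine serum, without induction of differentiation, and 100 ng of RNA per sample was turned into 3′ mRNA libraries. The description of the series names SCA1-Low-FAPs as the control, whereas the fold changes of the study are given as SCA1-Low-FAPs over SCA1-High-FAPs. No wild-type mice were part of these libraries, so the values describe dystrophic muscle cells after culture.

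The libraries held 1880561 to 3985656 counts on genes, so that 3 counts equal 0.753 to 1.60 counts per 1000000 counts (CPM) and genes near this level were poorly resolved. A gene was called when its adjusted *p*-value in the quasi-likelihood test of edgeR was under 0.05 and its log2 fold change, given throughout as SCA1-Low-FAPs over SCA1-High-FAPs, was beyond 0.5 in size. *Ly6a*, which encodes SCA-1, went against the order of the sort at the mRNA level after culture. It stood at 489, 784, 640 and 914 CPM in the SCA1-High-FAPs libraries and at 1094, 1074, 1150 and 1009 CPM in those of SCA1-Low-FAPs (log2 fold change 0.61 ± 0.17 SE, edgeR adjusted *p* = 0.034), a call kept in 1 of 8 fits that each left out 1 library. With the replicate number as a block in the edgeR fit the call was lost (adjusted *p* = 0.057). The names of the states below therefore refer to the sort and not to the SCA-1 mRNA of the cultures. *Pdgfra*, which encodes the FAP surface marker CD140a, was at 187, 176, 289 and 233 CPM against 156, 162, 161 and 187 CPM (adjusted *p* = 0.16). The summed level of 9 FAP markers was 13155 to 16081 CPM in SCA1-High-FAPs and 8471 to 14154 CPM in SCA1-Low-FAPs. Most of it was collagen mRNA, with means of 7510 and 6542 CPM for *Col1a1* and 5084 and 2497 CPM for *Col3a1*. By contrast, 9 markers of muscle stem cells and myoblasts summed to 15.2 CPM at most, with *Pax7*, *Myf5*, *Myod1*, *Myog* and *Myh3* at 0 in all libraries. The ranges of 8 leucocyte markers were 25.2 to 47.7 and 12.5 to 19.2 CPM (*Adgre1*, *Itgam* and *Cd3e* at 0), those of 6 endothelial markers 1.46 to 7.05 and 0.481 to 7.35 CPM (*Emcn* and *Cldn5* at 0), and those of 6 mural markers 19.3 to 40.7 and 18.0 to 39.9 CPM. Tenocyte markers (4 genes) summed to 16.2 to 47.6 and 9.98 to 18.6 CPM, and Schwann cell markers (3 genes) to 6.74 to 38.6 and 0 to 2.89 CPM. Calls of marker genes stand beside 3.32% of all tested genes called higher in SCA1-Low-FAPs and 4.36% called higher in SCA1-High-FAPs. Of the FAP markers 4 of 9 were called (*Ly6a* and *Thy1* higher in SCA1-Low-FAPs, *Dcn* and *Col3a1* higher in SCA1-High-FAPs). *Lyz2* of the leucocyte list and *Notch3* of the mural list were called higher in SCA1-High-FAPs, and *Cspg4* of the mural list higher in SCA1-Low-FAPs. The leucocyte and Schwann sums did not overlap between the states, and neither did those of 3 further lists. In SCA1-High-FAPs the highest means of the leucocyte and Schwann lists were *Lyz2* (28.5 against 10.5 CPM) and *Ngfr* (14.7 against 0.647 CPM). *Ptprc* had 1 count against 0, *Sox10* had 2 against 0, and *Csf1r* went the other way (3.30 against 5.45 CPM). These sums therefore do not measure a share of leucocytes or Schwann cells. The 8 mature adipocyte markers summed to 408 to 3490 CPM in SCA1-High-FAPs and 32.8 to 163 CPM in SCA1-Low-FAPs (*Lep* at 0), and 4 of the 6 tested were called higher in SCA1-High-FAPs, with *Plin1* at an adjusted *p* of 0.075 and *Cfd* at 0.053 in the same edgeR test. All 5 myofibroblast markers (702 to 1930 against 2423 to 3648 CPM) and all 6 genes of cycling cells (520 to 729 against 1015 to 1486 CPM) were called higher in SCA1-Low-FAPs. In the 8 fits without 1 library, *Acta2* and *Tagln* were each called in 3 and *Myh11* in 5. *Cnn1*, *Actg2* and the 6 cycling genes were called in all 8. The other marker calls held in 1 fit (*Ly6a* and *Notch3*) to 8 fits (*Retn*). The lists whose sums did not overlap move with the differences between the states given below, and their part in those differences was not tested.

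Of the 8 activin genes tested, 4 were called, against 7.68% of all 10181 genes tested. *Inhba*, *Inhbb* and *Fstl3* were higher in SCA1-Low-FAPs, against 3.32% of all tested genes, and *Acvr2a* was higher in SCA1-High-FAPs, against 4.36%. The median log2 fold change of the 8 genes was -0.17, and that of all tested genes was 0.00029. *Acvr1*, *Acvr1b*, *Fst* and *Fstl1* were not called, and *Acvr1c* and *Acvr2b* had too few counts for the test. In these bulk libraries a lower share of cells that express a gene and less RNA per cell cannot be told apart.

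**Figure D1:**
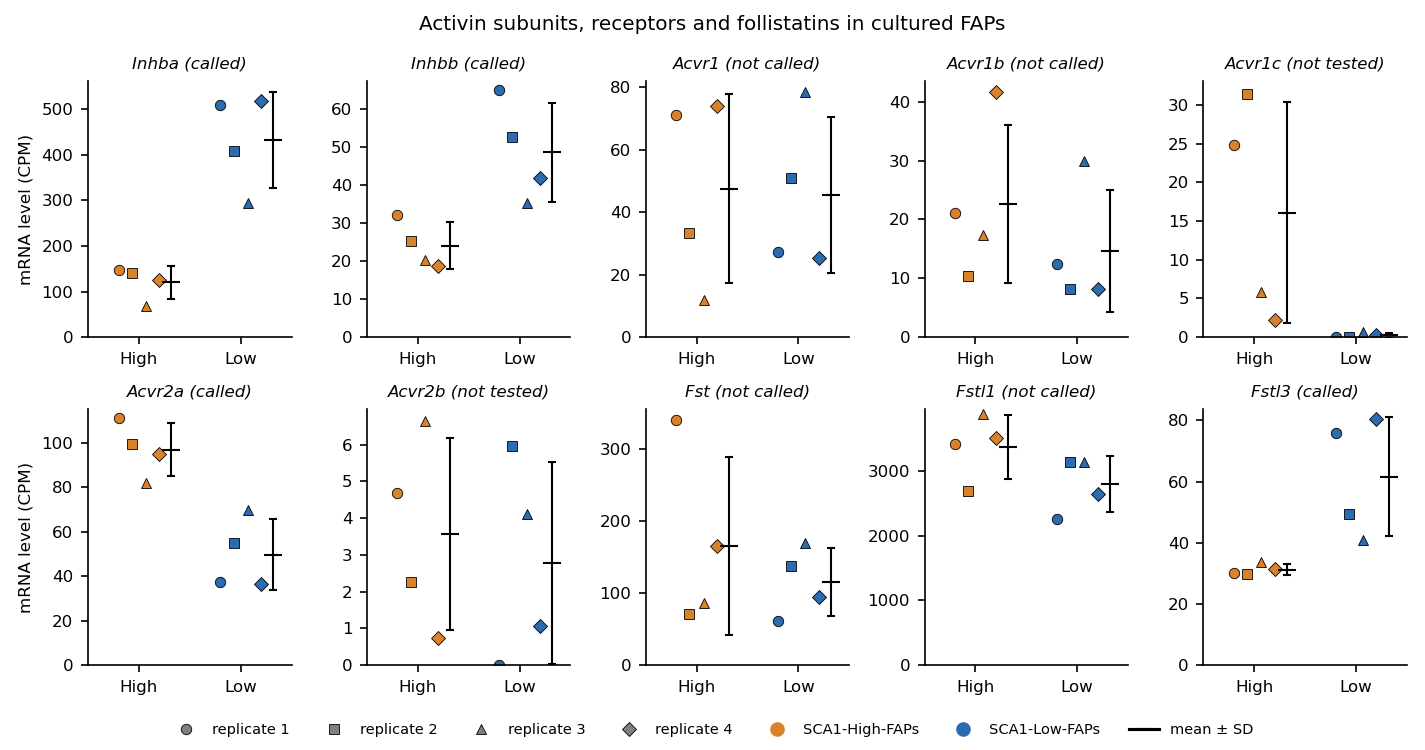
mRNA level (CPM, linear axis from 0) of the 10 activin genes in each library, with SCA1-High-FAPs in orange, SCA1-Low-FAPs in blue, a symbol for each replicate number, and the mean ± SD of 4 replicates beside the points. *Inhba*, *Inhbb* and *Fstl3* lie higher in all 4 SCA1-Low-FAPs libraries, *Acvr2a* and *Acvr1c* lie higher in all 4 SCA1-High-FAPs libraries, and the other 5 genes overlap.

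The sequences before the start sites of the 4 called genes are shown first, because 3 of these genes shared a direction and 1 did not. They are the bases that end at the annotated start (for *Fstl3*, 248 bases that end 2 bases earlier), read 5′ to 3′ on the strand of the gene from RefSeq (GRCm38.p6), with every CG pair in capitals. The windows lie at chr13:16011601-16011850 on the plus strand (*Inhba*), chr1:119422249-119422498 on the minus strand (*Inhbb*), chr10:79777024-79777271 on the plus strand (*Fstl3*) and chr2:48813859-48814108 on the plus strand (*Acvr2a*).
Inhba: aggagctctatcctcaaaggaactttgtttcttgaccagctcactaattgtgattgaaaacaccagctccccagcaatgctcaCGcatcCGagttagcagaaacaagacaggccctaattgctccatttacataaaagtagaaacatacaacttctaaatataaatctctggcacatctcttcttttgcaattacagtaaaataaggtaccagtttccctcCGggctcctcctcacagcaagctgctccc
Inhbb: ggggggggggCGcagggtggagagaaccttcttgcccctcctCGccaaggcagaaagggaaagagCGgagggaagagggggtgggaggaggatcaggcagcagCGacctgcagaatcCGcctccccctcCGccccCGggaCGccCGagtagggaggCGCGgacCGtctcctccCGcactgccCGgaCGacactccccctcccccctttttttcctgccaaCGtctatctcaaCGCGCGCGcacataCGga
Fstl3: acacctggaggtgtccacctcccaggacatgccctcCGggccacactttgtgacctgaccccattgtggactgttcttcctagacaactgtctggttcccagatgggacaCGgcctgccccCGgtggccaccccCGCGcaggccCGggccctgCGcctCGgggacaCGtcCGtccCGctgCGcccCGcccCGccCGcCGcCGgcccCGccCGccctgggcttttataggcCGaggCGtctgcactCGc
Acvr2a: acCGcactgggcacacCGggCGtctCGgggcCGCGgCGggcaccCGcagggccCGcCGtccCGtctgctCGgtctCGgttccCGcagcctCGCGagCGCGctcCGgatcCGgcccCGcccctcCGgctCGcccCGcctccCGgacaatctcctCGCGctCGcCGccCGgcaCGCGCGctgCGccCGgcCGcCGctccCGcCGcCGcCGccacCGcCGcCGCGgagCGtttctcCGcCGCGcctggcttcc

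The *Inhba* window had little CG, with 3 pairs and a GC content of 43.2%, against a median of 6 pairs and 52.4% over 32841 promoter windows of 250 bases. *Inhbb* had 21 pairs (68.0% GC), *Fstl3* had 22 (71.2%) and *Acvr2a* had 49 (82.0%), so the genes that were higher in SCA1-Low-FAPs did not share a base composition. Of the 10 genes, 9 had windows, 10 in all because *Acvr1c* had a pair of start sites, and *Fst* had none. The SMAD box CAGAC, sought on both strands, was found in the windows of *Fstl3*, *Acvr2a* and *Acvr2b* and in 42.2% of all windows. The TATA box TATAAA on the gene's strand was found in *Inhba* only among these windows, and in 7.59% of all. The GC box GGGCGG (either strand) was in 8 of the 10 windows and in 32.7% of all. The E-box CACGTG was in the *Acvr1b* window and in 6.02% of all. No window of these genes held the AP-1 site TGANTCA (6.75% of all), the CRE TGACGTCA (1.55%) or the TEAD site GGAATG (12.6%), each sought on both strands. These matches describe letters anywhere in a short window, whatever their distance from the start, and binding was not measured.

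Both ligand subunits were higher in SCA1-Low-FAPs. *Inhba* (ENSMUSG00000041324, chr13:16011851-16031621, GRCm38) encodes the beta A subunit, which pairs with itself to form activin A. Its mRNA was at 147, 141, 68.4 and 126 CPM in SCA1-High-FAPs replicates 1 to 4 and at 509, 409, 294 and 517 CPM in SCA1-Low-FAPs replicates 1 to 4. The groups did not overlap, and the lowest library of SCA1-Low-FAPs was replicate 3. Means were 121 ± 35.9 and 432 ± 104 CPM (SD, n = 4 each), a 3.59-fold difference (log2 fold change 1.84, 95% interval 1.34 to 2.35, edgeR adjusted *p* = 0.00061). It was called in each of the 8 fits that left out 1 library, with log2 fold changes of 1.65 to 1.98.

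*Inhbb* (ENSMUSG00000037035, chr1:119415465-119422248) encodes the beta B subunit of activin B and was the lower of the pair in every library. It was at 32.3, 25.2, 20.3 and 18.6 CPM in SCA1-High-FAPs and at 64.9, 52.5, 35.3 and 41.8 CPM in SCA1-Low-FAPs. The groups did not overlap, but SCA1-High-FAPs replicate 1 and SCA1-Low-FAPs replicate 3 were close to each other. The means of 24.1 ± 6.12 and 48.6 ± 13.0 CPM (SD, n = 4 each) differed 2.01-fold (log2 fold change 1.01, 95% interval 0.45 to 1.57, edgeR adjusted *p* = 0.026). This call was lost without SCA1-High-FAPs replicate 3 (adjusted *p* = 0.061) or 4 (0.072) and without SCA1-Low-FAPs replicate 1 (0.11) or 2 (0.063) in the same edgeR test.

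Libraries made from the 3′ end give reads close to 1 site of a transcript whatever its length, so CPM of different genes were set side by side without a division by length, although the yield of reads per transcript can differ between genes. On the CPM scale *Inhba* exceeded *Inhbb* by 3.37 to 6.76 times in SCA1-High-FAPs libraries and by 7.78 to 12.4 times in SCA1-Low-FAPs libraries. Thus the ratio of the subunits, given here as a description, was higher in every SCA1-Low-FAPs library.

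Of 8 further SMAD2/3 ligands and inhibin subunits, *Gdf11* alone entered the test and was not called (32.7 ± 5.50 against 28.5 ± 5.10 CPM, log2 fold change -0.21, edgeR adjusted *p* = 0.69). *Inha*, whose product turns a beta subunit into an inhibin, had 15 counts over the 4 SCA1-High-FAPs libraries and 4 over those of SCA1-Low-FAPs. *Mstn* (myostatin), *Inhbc*, *Gdf1*, *Gdf3* and *Nodal*, named here after their values were seen, had 0 counts in every library.

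Among the type I receptors, the largest contrast lay in *Acvr1c*. *Acvr1c* (ENSMUSG00000026834, chr2:58267453-58357895) encodes ALK7, a receptor for activin B, nodal and GDF3 that is best known from adipose tissue. It had 53, 70, 14 and 6 counts in SCA1-High-FAPs and 0, 0, 2 and 1 counts in SCA1-Low-FAPs, which correspond to 24.8, 31.5, 5.81 and 2.19 CPM against 0, 0, 0.631 and 0.263 CPM. SCA1-High-FAPs replicates 1 and 2 were far above replicates 3 and 4, and all 4 lay above SCA1-Low-FAPs. In sum there were 143 of 9432872 counts in SCA1-High-FAPs and 3 of 11048825 in SCA1-Low-FAPs, a ratio of 55.8 with a counting interval of 18.7 to 273.9, which covers counting error only.

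The 2 genes without enough counts were compared by a two-sided exact permutation test of mean CPM, an analysis added after the values were seen. For *Acvr1c* the exact *p* was 0.029, the smallest that 70 assignments of the labels allow, and 0.057 after adjustment over both genes. DESeq2, which tests such genes, gave *Acvr1c* an adjusted *p* of 9.6e-06 (log2 fold change -5.92 ± 1.11 SE) and called 8.53% of the genes to which it gave an adjusted *p*. By this tool 5 of the 10 activin genes were called, with *Inhba*, *Inhbb* and *Fstl3* higher in SCA1-Low-FAPs, beside 3.67% of all genes, and *Acvr2a* and *Acvr1c* higher in SCA1-High-FAPs, beside 4.86%. Without a filter on low counts edgeR also called it (adjusted *p* = 7.9e-08).

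The 8 mature adipocyte markers summed to 3490, 1236, 3141 and 408 CPM in SCA1-High-FAPs replicates 1 to 4 and to 91.3, 94.8, 163 and 32.8 CPM in SCA1-Low-FAPs. Both *Acvr1c* and this sum were higher in all SCA1-High-FAPs libraries, but not in the same order. The library with the most *Acvr1c* (replicate 2) was the third by the sum, and replicate 3, near the top by the sum, held 14 counts of *Acvr1c*. Replicate 4 was the lowest SCA1-High-FAPs library in both (2.19 CPM of *Acvr1c*, sum of 408 CPM). Replicate 1 was high in both (24.8 CPM of *Acvr1c*, sum of 3490 CPM). The part of adipocyte-like cells in the *Acvr1c* level was not tested.

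**Figure D2:**
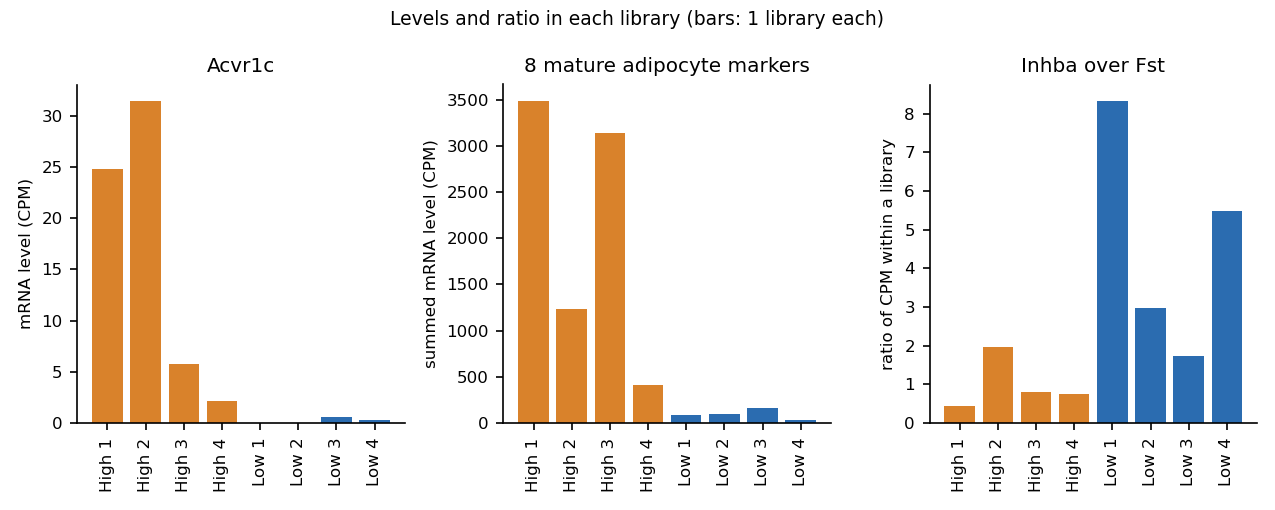
Values in each library, as bars from 0, of *Acvr1c* (CPM, left), of the summed level of 8 mature adipocyte markers (CPM, middle) and of the ratio of *Inhba* to *Fst* CPM (right), with SCA1-High-FAPs in orange and SCA1-Low-FAPs in blue. *Acvr1c* and the marker sum are higher in all SCA1-High-FAPs libraries but in different order, and the ratio overlaps between the states at SCA1-High-FAPs replicate 2 (1.97) and SCA1-Low-FAPs replicate 3 (1.74).

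*Acvr1b* and *Acvr1* were not called. *Acvr1b* (ENSMUSG00000000532, chr15:101174067-101213684), which encodes ALK4, the main type I receptor of activin A, was at 21.0, 10.3, 17.4 and 41.6 CPM in SCA1-High-FAPs and at 12.5, 8.12, 30.0 and 8.14 CPM in SCA1-Low-FAPs. The groups overlapped, and the interval of the log2 fold change (-0.61, -1.62 to 0.40, edgeR adjusted *p* = 0.51) leaves room for a change of over 2-fold. Its log2 fold change was -1.26 without SCA1-Low-FAPs replicate 3 and -0.13 without SCA1-High-FAPs replicate 4, and it was called in neither fit. *Acvr1* (ENSMUSG00000026836, chr2:58388644-58567157) encodes ALK2, which mostly carries BMP signals and can also bind activin A. It was at 71.1, 33.2, 12.0 and 74.0 CPM against 27.4, 50.9, 78.5 and 25.2 CPM, a wide spread within both states (log2 fold change -0.07, 95% interval -1.41 to 1.28, edgeR adjusted *p* = 0.97).

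Of the type II receptors, *Acvr2a* was higher in SCA1-High-FAPs. *Acvr2a* (ENSMUSG00000052155, chr2:48814109-48903269) encodes a receptor that binds activins, myostatin and some BMPs. It was at 111, 99.3, 82.1 and 95.1 CPM in SCA1-High-FAPs and at 37.5, 54.7, 70.0 and 36.2 CPM in SCA1-Low-FAPs. The groups did not overlap, and SCA1-Low-FAPs replicate 3 was again the nearest to the other state. Its mean was 97.0 ± 12.0 against 49.6 ± 16.0 CPM (SD, n = 4 each), a 1.95-fold difference (log2 fold change -0.97, 95% interval -1.43 to -0.50, edgeR adjusted *p* = 0.011), and the call was lost only without SCA1-Low-FAPs replicate 1 (adjusted *p* = 0.053). The last exon bases of *Acvr2a* and *Orc4*, which lie on opposite strands, overlap by 446 bases, and since the strand setting of the counting is not given in the sources used here, reads in that stretch may not be told apart (*Orc4* had 412 counts over the 8 libraries, *Acvr2a* 1457).

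*Acvr2b* (ENSMUSG00000061393, chr9:119402118-119434995), the close relative of *Acvr2a*, was barely detected. It had 10, 5, 16 and 2 counts in SCA1-High-FAPs and 0, 11, 13 and 4 counts in SCA1-Low-FAPs, and the states overlapped. The ratio of the sums was 1.38 with a counting interval of 0.809 to 2.37 (exact permutation *p* = 0.66 and adjusted *p* = 0.66). A difference was not detectable at this depth. *Acvr2a* had the higher count of the pair in all 8 libraries.

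**Figure D3:**
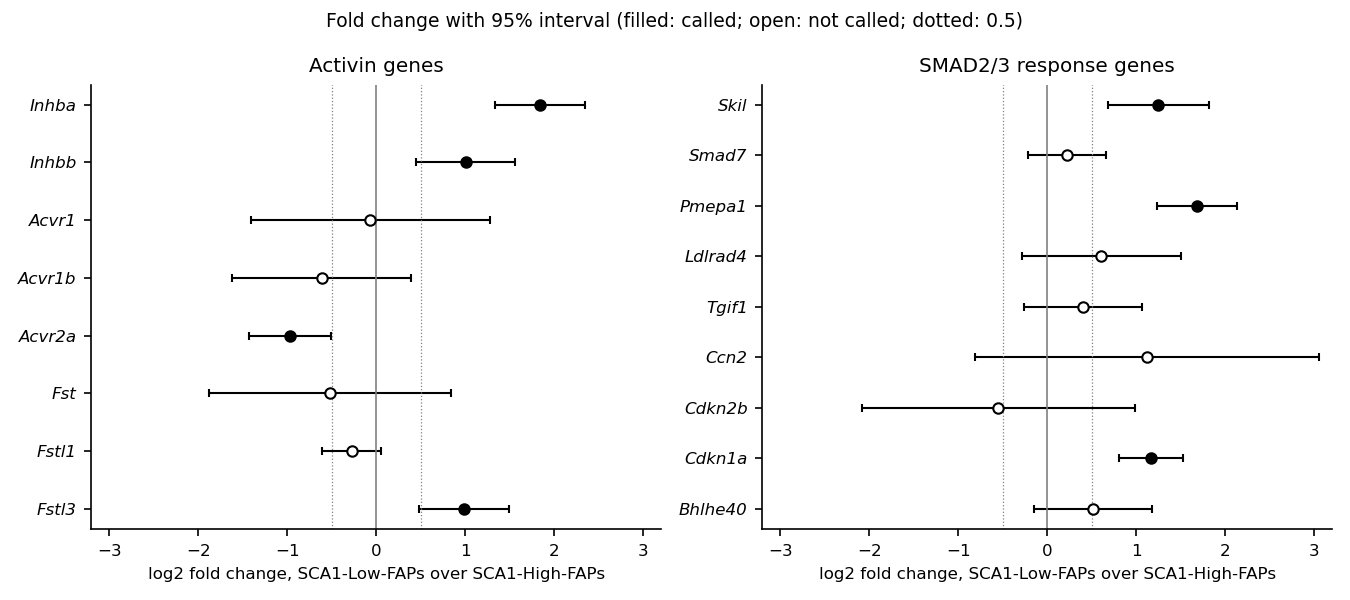
Log2 fold change (SCA1-Low-FAPs over SCA1-High-FAPs) with its 95% interval for the 8 activin genes tested (left) and 9 SMAD2/3 response genes (right). Filled points were called, open points were not, and dotted lines mark the fold limit of 0.5. The 3 called response genes and 3 of the 4 called activin genes lie to the right of 0, and *Acvr2a* lies to the left.

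Of follistatin and its relatives, *Fstl3* was called. *Fstl3* (ENSMUSG00000020325, chr10:79777272-79782630) encodes a secreted antagonist that binds activins and myostatin. It was nearly constant in SCA1-High-FAPs, at 29.9, 29.7, 33.6 and 31.4 CPM, and stood at 76.0, 49.3, 41.0 and 80.4 CPM in SCA1-Low-FAPs. The groups did not overlap, with SCA1-Low-FAPs replicates 1 and 4 well above replicates 2 and 3. The means of 31.1 ± 1.80 and 61.6 ± 19.4 CPM (SD, n = 4 each) differed 1.98-fold (log2 fold change 0.98, 95% interval 0.48 to 1.49, edgeR adjusted *p* = 0.018). The call was lost without SCA1-Low-FAPs replicate 1 (edgeR adjusted *p* = 0.074) or replicate 4 (0.095). On the other strand *Fstl3* shares 1157 exon bases with *Prss57*, which had 0 counts.

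*Fst* (ENSMUSG00000021765, chr13:114452290-114458951) encodes follistatin, which binds activins nearly irreversibly. It was at 341, 71.4, 85.8 and 165 CPM in SCA1-High-FAPs and at 61.1, 137, 169 and 94.3 CPM in SCA1-Low-FAPs. SCA1-High-FAPs replicate 1 was far above the rest and the groups overlapped. *Fst* was not called (log2 fold change -0.52, 95% interval -1.88 to 0.84, edgeR adjusted *p* = 0.68), and without SCA1-High-FAPs replicate 1 the log2 fold change was 0.10.

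*Fstl1* (ENSMUSG00000022816, chr16:37776873-37836514), a more distant relative and a secreted glycoprotein of mesenchymal cells, was the most abundant of the 10 mRNAs in every library. It was at 3421, 2689, 3875 and 3519 CPM in SCA1-High-FAPs and at 2254, 3148, 3141 and 2648 CPM in SCA1-Low-FAPs. The groups overlapped, and *Fstl1* was not called (log2 fold change -0.27, 95% interval -0.61 to 0.06, edgeR adjusted *p* = 0.35). Its interval was the narrowest of the 8 genes tested.

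**Figure D4:**
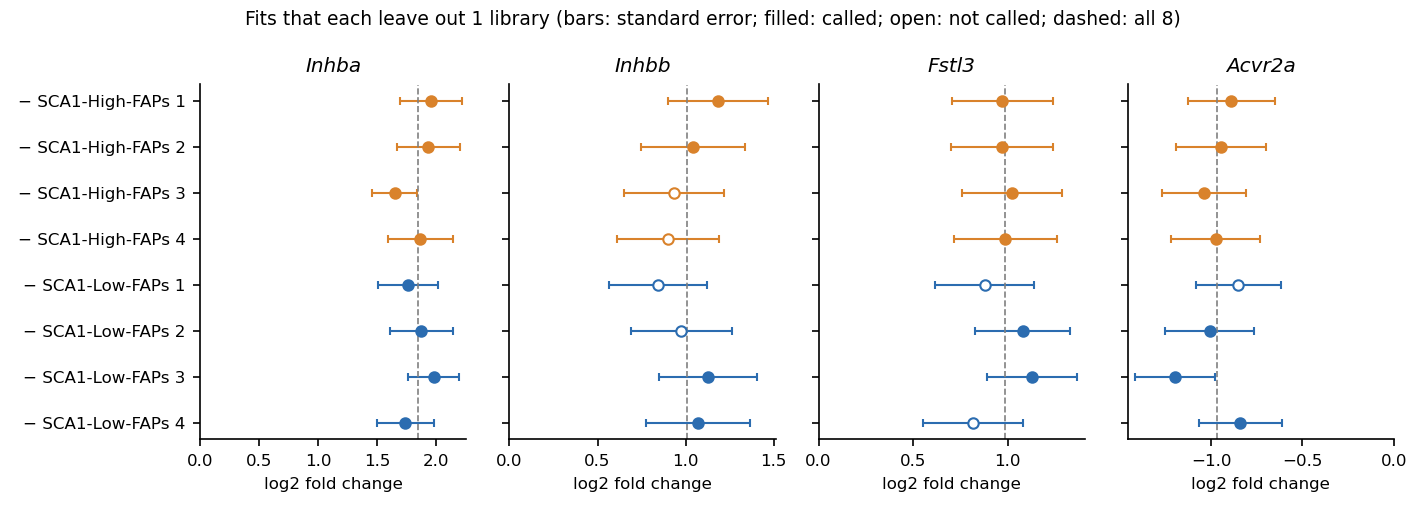
Log2 fold change (SCA1-Low-FAPs over SCA1-High-FAPs) of the 4 called activin genes in 8 fits that each leave out the library named on the vertical axis. Bars are standard errors, filled points were called, open points were not, and the dashed line is the value with all 8 libraries. *Inhba* is called in 8 of 8 fits, *Acvr2a* in 7, *Fstl3* in 6 and *Inhbb* in 4, and no sign changes.

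Ranked by mean CPM, SCA1-High-FAPs held *Fstl1*, *Fst*, *Inhba*, *Acvr2a*, *Acvr1*, *Fstl3*, *Inhbb*, *Acvr1b*, *Acvr1c* and *Acvr2b*. In this order neighbours were separated without overlap at *Fstl1* over *Fst* and at *Acvr2a* over *Acvr1*, and all other neighbours overlapped. In SCA1-Low-FAPs the order was *Fstl1*, *Inhba*, *Fst*, *Fstl3*, *Acvr2a*, *Inhbb*, *Acvr1*, *Acvr1b*, *Acvr2b* and *Acvr1c*, with no overlap at *Fstl1* over *Inhba*, *Inhba* over *Fst* and *Acvr1b* over *Acvr2b*. *Inhba* thus overlapped *Fst* and *Acvr2a* in SCA1-High-FAPs and stood above both in every SCA1-Low-FAPs library.

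Ligand and antagonist were also set against each other within each library. *Inhba* over *Fst* CPM was 0.43, 1.97, 0.80 and 0.76 in SCA1-High-FAPs and 8.34, 2.98, 1.74 and 5.49 in SCA1-Low-FAPs. Taken as (*Inhba* + *Inhbb*) over (*Fst* + *Fstl3*), the ratio was 0.48 to 1.64 (median 0.74) and 1.57 to 4.19 (median 2.84). In both ratios the states overlapped between SCA1-High-FAPs replicate 2 and SCA1-Low-FAPs replicate 3. These are ratios of mRNA, and neither secreted activin nor follistatin was measured.

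The 4 called genes were also compared with each other over the 8 libraries. Pearson's *r* of log2 CPM was 0.90 between *Inhba* and *Inhbb*, 0.87 between *Inhba* and *Fstl3*, 0.79 between *Inhbb* and *Fstl3*, -0.85 between *Inhba* and *Acvr2a*, -0.78 between *Inhbb* and *Acvr2a* and -0.99 between *Acvr2a* and *Fstl3*. After the mean of each state was removed, these were 0.59, 0.43, 0.28, -0.27, -0.18 and -0.97. These values describe 8 points that share libraries and their depth, and those before removal of the means also hold the difference between the states.

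The wider pathway was given by 54 further genes in 6 lists, of which 40 had a count, 33 were tested and 5 were called (15.2%, beside the 7.68% of all tested genes). Their median log2 fold change was 0.13. Without SCA1-High-FAPs replicate 1, or without SCA1-Low-FAPs replicate 1, 2 or 4, 3 of them were called. Among 10 other receptors, co-receptors and decoys, 6 were tested and *Tgfbr3* was the 1 called. *Tgfbr3*, the co-receptor betaglycan, which lets inhibin compete with activin for type II receptors, was at 256, 164, 210 and 206 CPM in SCA1-High-FAPs and at 123, 96.4, 166 and 98.0 CPM in SCA1-Low-FAPs. The states met at SCA1-High-FAPs replicate 2 and SCA1-Low-FAPs replicate 3 (log2 fold change -0.79 ± 0.19 SE, edgeR adjusted *p* = 0.017), and the call held in 4 of 8 fits without 1 library. It was lost without SCA1-High-FAPs replicate 1 (edgeR adjusted *p* = 0.062) and without SCA1-Low-FAPs replicate 1 (0.057), 2 (0.065) or 4 (0.065). *Bmpr2*, a type II receptor shared with BMPs, was not called, at 109 ± 18.8 and 108 ± 16.9 CPM (edgeR adjusted *p* = 0.96).

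Of 7 proteases that cleave precursors or complexes of the family, 5 were tested and *Pcsk5* was called. *Pcsk5*, a proprotein convertase, was at 57.5, 56.6, 71.3 and 90.4 CPM in SCA1-High-FAPs and at 9.13, 11.4, 44.1 and 12.1 CPM in SCA1-Low-FAPs. Again SCA1-Low-FAPs replicate 3 was the nearest to the other state. The log2 fold change was -1.81 ± 0.44 SE (edgeR adjusted *p* = 0.029), and the call held only without SCA1-High-FAPs replicate 2 and without SCA1-Low-FAPs replicate 3 of the 8 fits that left out 1 library, with adjusted *p*-values of 0.054 to 0.10 in the other 6. Without SCA1-Low-FAPs replicate 3 the log2 fold change was -2.67 (edgeR adjusted *p* = 2.5e-05). *Furin* (175 ± 34.7 and 148 ± 27.0 CPM, edgeR adjusted *p* = 0.50) and *Pcsk6* (178 ± 18.6 and 138 ± 30.5 CPM, adjusted *p* = 0.23), convertases as well, were not called.

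Of 7 other binding proteins and antagonists 1 was tested. *Lefty1*, an antagonist of nodal, was at 2.46 ± 1.98 and 6.16 ± 0.991 CPM and was not called (edgeR adjusted *p* = 0.26), and *Wfikkn2*, which encodes a binder of myostatin and GDF11, had 0 and 4 counts. Of 17 SMADs and their regulators, 15 were tested, and *Skil* and *Pmepa1* were called, both higher in SCA1-Low-FAPs. *Ski*, the relative of *Skil*, was not (244 ± 23.2 and 223 ± 24.5 CPM, edgeR adjusted *p* = 0.66).

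All 9 genes taken as textbook responses to SMAD2 and SMAD3 were tested, and 3 were called, each higher in SCA1-Low-FAPs, beside 3.32% of all tested genes. The median log2 fold change of the 9 was 0.61. *Cdkn2b*, named here after its values were seen, pointed the other way and was not called (17.2 ± 6.74 against 11.5 ± 14.2 CPM, log2 fold change -0.55, edgeR adjusted *p* = 0.73), but without SCA1-Low-FAPs replicate 3 it was called higher in SCA1-High-FAPs (log2 fold change -1.93, adjusted *p* = 0.028). *Skil*, *Smad7*, *Pmepa1* and *Tgif1* also stand in the list of regulators, so the lists are not separate evidence. TGF-beta acts on the same SMADs, and *Cdkn1a* answers to other signals as well.

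*Pmepa1*, which encodes a membrane protein that binds SMADs and damps the pathway, was at 206, 253, 129 and 211 CPM in SCA1-High-FAPs and at 748, 717, 421 and 680 CPM in SCA1-Low-FAPs (log2 fold change 1.68 ± 0.21 SE, edgeR adjusted *p* = 0.00047). *Skil*, which encodes the SMAD corepressor SnoN, was at 24.3, 15.7, 13.7 and 15.3 CPM against 49.0, 32.5, 36.3 and 46.0 CPM (log2 fold change 1.25 ± 0.27 SE, edgeR adjusted *p* = 0.0084). The states did not overlap in either gene. *Cdkn1a*, which encodes the cell cycle inhibitor p21, was at 348, 391, 316 and 349 CPM against 938, 665, 582 and 968 CPM (log2 fold change 1.17 ± 0.17 SE, edgeR adjusted *p* = 0.00067).

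*Pmepa1*, *Skil* and *Cdkn1a* were each called in 8 of 8 fits without 1 library. *Ccn2*, a matricellular gene, was at 505 ± 370 and 1100 ± 338 CPM and was not called (edgeR adjusted *p* = 0.50).

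**Figure D5:**
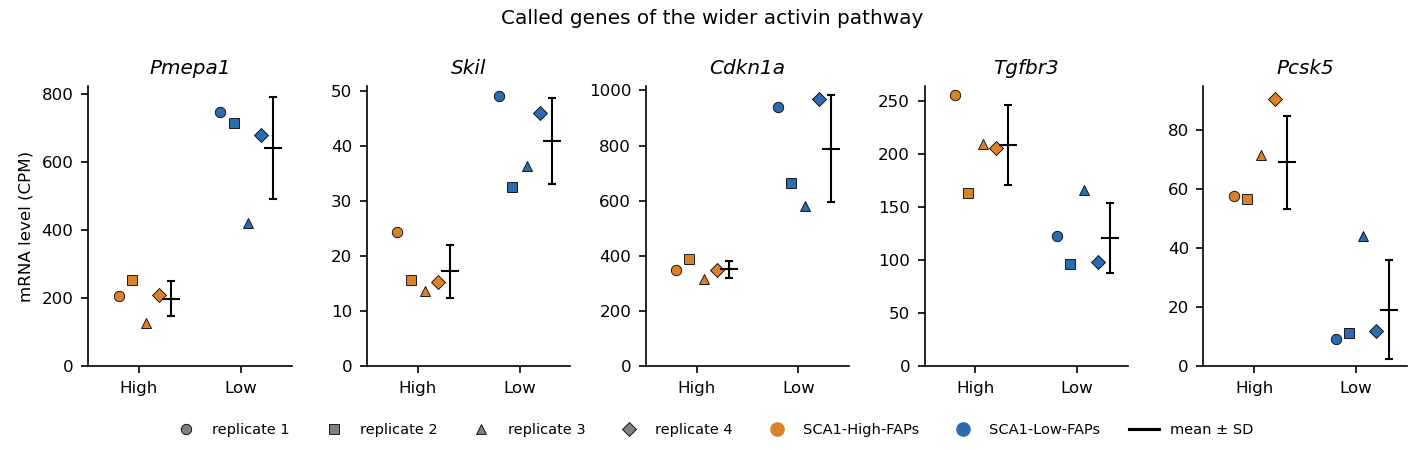
mRNA level (CPM, linear axis from 0) of the 5 called genes of the wider pathway in each library, with SCA1-High-FAPs in orange, SCA1-Low-FAPs in blue, a symbol for each replicate number and the mean ± SD of 4 replicates. *Pmepa1*, *Skil* and *Cdkn1a* lie higher in all SCA1-Low-FAPs libraries, *Pcsk5* lies higher in all SCA1-High-FAPs libraries, and *Tgfbr3* overlaps at 164 and 166 CPM.

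Non-overlap of the states was found for *Inhba*, *Inhbb* and *Fstl3* in the direction of SCA1-Low-FAPs, beside 6.72% of all tested genes. In the direction of SCA1-High-FAPs it was found for *Acvr2a* and, outside the tested genes, for *Acvr1c*, beside 7.42%.

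The genes with the most similar pattern to each called member were sought among the other 10180 tested genes by Pearson's *r* of log2 CPM over 8 libraries. For *Inhba* these were *Magoh* (0.990), *Pmepa1* (0.988) and *Anln* (0.987), for *Inhbb* *Gins2* (0.974) and *Cybc1* (0.967), for *Acvr2a* *Ebf1* (0.989), *Svep1* (0.989) and *Dsel* (0.982), and for *Fstl3* *Ywhag* (0.986), *Crip2* (0.979) and *Fam120a* (0.972). *Pmepa1* was the 1 gene of the pathway lists among these 11. With the mean of each state removed, the top genes were *Stard9* (0.984), *Polrmt* (0.982) and *Taok1* (0.976) for *Inhba*, *Cdh13* (0.967), *Bag1* (0.963) and *Smim11* (0.949) for *Inhbb*, *Rpl22l1* (0.978), *Notch2* (0.977) and *Pde6d* (0.969) for *Acvr2a*, and *Ywhag* (0.986), *Bnip2* (0.961) and *Grk6* (0.956) for *Fstl3*. *Ywhag* alone was named both ways for the same member. With 8 points that share libraries and depth and 10180 genes searched, values this high are a description only.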

How the data were processed

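The authors trimmed the reads, aligned them with STAR to mm10 and counted uniquely mapped reads on genes of Ensembl release 93 with htseq-count, and deposited raw counts per gene, one table for each of 8 libraries. The strand setting is not given in the sources used here. Entries for reads without a gene (13.3% to 16.4% on no feature) were left out. Entries for alignments that were not unique were left out too. Their share was 37.5% to 39.7% in SCA1-High-FAPs and 40.8% to 43.3% in SCA1-Low-FAPs, and its part in the differences between the states was not tested. Names and positions came from GENCODE M21 (GRCm38), which matched 30934 of 31053 identifiers. Counts were fitted with edgeR 4.0.16 (R 4.3.3), with TMM normalisation, filterByExpr (10 counts, 15 in total), the robust quasi-likelihood test and Benjamini-Hochberg adjustment over 10181 genes. SE is the log2 fold change over the root of F. CPM use TMM-scaled library sizes, log2 CPM a prior count of 2. Some genes are not reported here. The script was tested on simulated data.

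Groups followed the labels. Each state had 4 replicates. The 4 mice are given for the cells as a whole, so the states probably share mice, but the labels do not match libraries to mice. The main fit has no block and treats the libraries as independent. Its *p*-values measure the spread between these libraries. The members, gene lists and marker lists were chosen with earlier results of these data known. Named were all members, called pathway genes with the 2 of highest mean CPM in each list, the 3 genes most similar to each called member before and after removal of state means, *Ly6a* and *Pdgfra*. The other marker genes were named after their values were seen. Alternatives were DESeq2 1.42.0 (with and without the replicate number as a block), RLE factors, no filter, 10 counts in every sample, a replicate block, no robust step, each library left out, an adjusted *p* of 0.01 and no fold limit.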

Additional observations from a re-analysis of the deposited data

Results flagged for a closer look

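In 30 groups of 4 libraries (15 named genes in 2 states), a value was marked where its gap to the nearest other library, as a share of the range of its group, exceeded the 95% critical value of Dixon, which chance does in about 1 in 20 groups. This held for 1 value. *Pcsk5* in SCA1-Low-FAPs replicate 3 was at 44.15 CPM beside 9.134 to 12.08 CPM in the other SCA1-Low-FAPs libraries (gap of 0.916 of the range). No activin gene was marked in either state.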

How the results depend on the processing

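The 4 calls among activin genes were 4 or 5 under DESeq2, RLE factors, no filter, at least 10 counts in every sample, no robust step and no fold limit, the fifth being *Acvr1c*. An adjusted *p* of 0.01 left 1 activin gene (*Inhba*), 3 other pathway genes (of 5) and 307 genes in all (of 782). Without 1 library, activin calls ran from 2 to 5, other pathway calls from 3 to 6 and all calls from 410 to 1017. In 5 of these fits *Acvr1c* passed the filter through its SCA1-High-FAPs counts and was called, which gives no support. With *Acvr1c* left out, activin calls ran from 1 to 4. The 2 activin calls without SCA1-Low-FAPs replicate 1 were *Inhba* and *Acvr1c*, which passed the filter there through its SCA1-High-FAPs counts and so gives no support, and all calls were then 417, against 410 without SCA1-Low-FAPs replicate 4 and 1017 without replicate 3. The cause was not tested. *Pcsk5* was also lost without the filter (adjusted *p* = 0.068). Some uncalled genes changed sign. Without 1 library the log2 fold change ran from -0.49 to 0.24 for *Acvr1*, from -0.78 to 0.10 for *Fst* and from -0.95 to 0.0077 for *Acvr2b*. *Acvr1* was at 0.19 without SCA1-High-FAPs replicate 1, 0.24 without replicate 4, 0.11 without SCA1-Low-FAPs replicate 1, 0.14 without its replicate 4 and 0.0068 in DESeq2 with the replicate block. *Fst* had 0.10 without SCA1-High-FAPs replicate 1, and *Acvr2b* 0.0077 without SCA1-Low-FAPs replicate 1. Over single genes and alternatives, 180 values kept direction and call, 8 gained a call, 18 lost it and 7 changed sign. All 8 gains were of *Acvr1c*, 5 of them in the fits without 1 library that give it no support. The labels do not say whether samples with the same replicate number share a mouse. Deviations of same-numbered samples correlated at -0.050 to 0.0067 in 4 pairs, and 0 of 8 samples correlated best with their own number. These values cannot decide the matter, because a shared mouse may leave only a small trace in 4 libraries per state. A replicate block gave 4 activin genes, 5 other pathway genes and 697 genes in all, 619 of them shared with the fit without it. No call of an activin gene or of a called pathway gene changed with this block. Among the marker genes named above, *Ly6a* (edgeR adjusted *p* = 0.057) and *Notch3* (0.096) lost their calls. *Plin1* (8.3e-05) and *Cfd* (0.0018) were then called higher in SCA1-High-FAPs in the same test. Depth limits *Acvr2b* in both states and *Acvr1c* in SCA1-Low-FAPs.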
